A study of Mus musculus with 18 samples.

Results

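The genes described here encode the NADPH oxidase of phagocytes and the partners that sit beside it: the membrane subunits Cybb and Cyba, the cytosolic subunits Ncf1 and Ncf4, the small GTPase gene Rac2 and the mitochondrial superoxide dismutase gene Sod2. The genes were taken by symbol from the table of gene counts, and 6 of its 23337 symbols matched. The series asks about macrophage subsets that migrate or move in place within atherosclerotic lesions. It holds 18 RNA sequencing libraries of live leukocytes (CD45+ and negative for the dead-cell dye 7AAD) sorted from digested aortas and carotid arteries; the mice were of both sexes, which the labels do not give by library. All mice were Apoe-/- on a C57BL/6 background, carried Cx3cr1GFP and Cd11cYFP reporters and were 7 months of age after 5 months on Western diet. Apoe encodes a lipoprotein component that clears cholesterol, and its loss together with this diet produces arterial plaques. No group lacked the deletion, the reporters or the diet. Cells were sorted into YFP cells (GFP-YFP+, n = 5), DP cells (GFP+YFP+, n = 4), GFP cells (GFP+YFP-, n = 6) and DN cells (GFP-YFP-, n = 3). The gates therefore report activity of a fractalkine receptor promoter and of a promoter of the integrin subunit Cd11c, and do not by themselves name the leukocyte type in a gate. Whether replicates came from separate mice was not stated in the labels, so the p-values measure the spread between these libraries, which may be technical.

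In phagocytes, the products of Cybb and Cyba form a flavocytochrome in the membrane that passes electrons from NADPH to oxygen and so makes superoxide. In resting cells the complex is silent. On activation, the organiser encoded by Ncf1 and the adaptor encoded by Ncf4 move to the membrane together with a Rac GTPase, which is Rac2 in neutrophils and Rac1 or Rac2 in macrophages. Sod2 is not part of the oxidase; its product turns superoxide made inside mitochondria into hydrogen peroxide, and the gene is a known target of inflammatory signalling. In arterial plaques the oxidase is known as a source of oxidants in macrophages.

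Promoters are shown for the 4 genes that the promoter table holds, since the text below sets their levels over the libraries beside each other. Each line is the 250 bases before the RefSeq start of the gene, 5′ to 3′ on the strand of the gene, in GRCm38.p6, the assembly that mm10 represents. Capitals mark matches, on either strand, to GAAANNGAA, a core of the interferon-stimulated response element, or to GAGGAA, a core of the site of PU.1, a transcription factor of myeloid cells. The Cybb window lies at chrX:9469325-9469574 (minus strand), the Cyba window at chr8:122432941-122433190 (minus strand), the Ncf1 window at chr5:134229626-134229875 (minus strand) and the Sod2 window at chr17:13007589-13007838 (plus strand). The gene spans given further below are from GENCODE, another annotation, and for Cybb and Sod2 they begin upstream of these windows. Motif positions therefore refer to the RefSeq starts alone.
Cybb: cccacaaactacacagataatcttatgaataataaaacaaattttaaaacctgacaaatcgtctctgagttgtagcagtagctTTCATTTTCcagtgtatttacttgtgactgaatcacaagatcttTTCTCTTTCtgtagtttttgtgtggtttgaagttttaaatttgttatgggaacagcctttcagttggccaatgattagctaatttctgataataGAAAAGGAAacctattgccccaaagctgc
Cyba: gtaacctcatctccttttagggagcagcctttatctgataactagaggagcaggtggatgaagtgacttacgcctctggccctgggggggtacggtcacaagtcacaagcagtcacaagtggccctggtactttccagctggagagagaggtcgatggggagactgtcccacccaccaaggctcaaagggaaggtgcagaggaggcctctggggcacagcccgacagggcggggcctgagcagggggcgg
Ncf1: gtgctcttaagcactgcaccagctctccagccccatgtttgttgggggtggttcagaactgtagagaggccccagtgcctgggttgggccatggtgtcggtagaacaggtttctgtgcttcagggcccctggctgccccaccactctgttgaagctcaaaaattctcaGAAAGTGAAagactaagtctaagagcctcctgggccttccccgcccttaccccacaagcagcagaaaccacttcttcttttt
Sod2: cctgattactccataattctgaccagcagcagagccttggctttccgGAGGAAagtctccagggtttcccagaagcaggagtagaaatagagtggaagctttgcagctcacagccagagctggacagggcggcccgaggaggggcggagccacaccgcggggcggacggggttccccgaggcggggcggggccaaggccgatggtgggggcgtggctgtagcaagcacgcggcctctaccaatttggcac
The Cybb window holds 3 matches to GAAANNGAA, which begin at positions -167, -123 and -29 relative to the start, and the first pair of these is on the opposite strand. The Ncf1 window holds 1 such match, at position -82, and the Cyba window holds no match to either motif. The Sod2 window holds 1 match to GAGGAA, at position -203, and none to GAAANNGAA. Over the libraries, Cybb had a higher correlation with Sod2 (r = 0.791) than with Ncf1 (r = 0.643). These correlations come from libraries that share scaling and composition, and whether the motifs have a part in them was not tested. Over 32851 promoters of this length, 7.129% held GAAANNGAA and 23.25% held GAGGAA, so these matches describe the letters and are not shown to be used as sites. The table of promoters matched 4 of the 6 genes, and Ncf4 and Rac2 had no entry in it.

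Most libraries held between 9790946 and 27742113 counts, and YFP replicate 6 held 289166, where Cybb still had 298 counts and Sod2 64. Levels are given as CPM, read counts relative to a library size that was scaled by TMM, a method that assumes that most genes do not differ. All libraries expressed Ptprc, the gene of CD45, at 438.2 to 1248 CPM. The reporter genes went against the gate in several libraries. Cx3cr1 had 9.43 and 0.426 CPM in DP replicates 4 and 5 and 142 and 134 CPM in DN replicates 3 and 6, and Itgax, the gene of Cd11c, had 38.6 and 47.8 CPM in those DP libraries against 332 and 297 CPM in those DN libraries. YFP replicate 6, from a gate without GFP, had 104 CPM of Cx3cr1. Summed levels of 13 neutrophil markers were 39460 CPM in DP replicate 5, 3178 CPM in DP replicate 4, 2197 CPM in DN replicate 1 and 1175 CPM in YFP replicate 6, and at most 492.6 CPM in the other libraries. All 7 T cell markers and all 6 B cell markers were highest in DN replicate 1, where the 14 macrophage and monocyte markers summed to 2383 CPM, against 10760 to 132700 CPM in the other 17 libraries. In YFP replicate 5 and DP replicate 5, short genes were high relative to long ones, as described below with Cyba. In bulk samples such as these, fewer cells of a type and less RNA per cell cannot be told apart.

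All 6 genes had counts in all 18 libraries and passed the filter on low counts, and none of them passed the test between any 2 of the 4 subsets. Together they summed to 4057 ± 2972 CPM in YFP libraries (SD, n = 5), 4074 ± 3351 CPM in DP libraries (n = 4), 3005 ± 671 CPM in GFP libraries (n = 6) and 2887 ± 1243 CPM in DN libraries (n = 3). GFP libraries were the most uniform, with sums of 1979 to 3796 CPM. The YFP and DP sums reached 9069 and 9098 CPM, in YFP replicate 5 and DP replicate 5, while YFP replicate 1 had the lowest sum of all, at 1310 CPM.

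**Figure D1:**
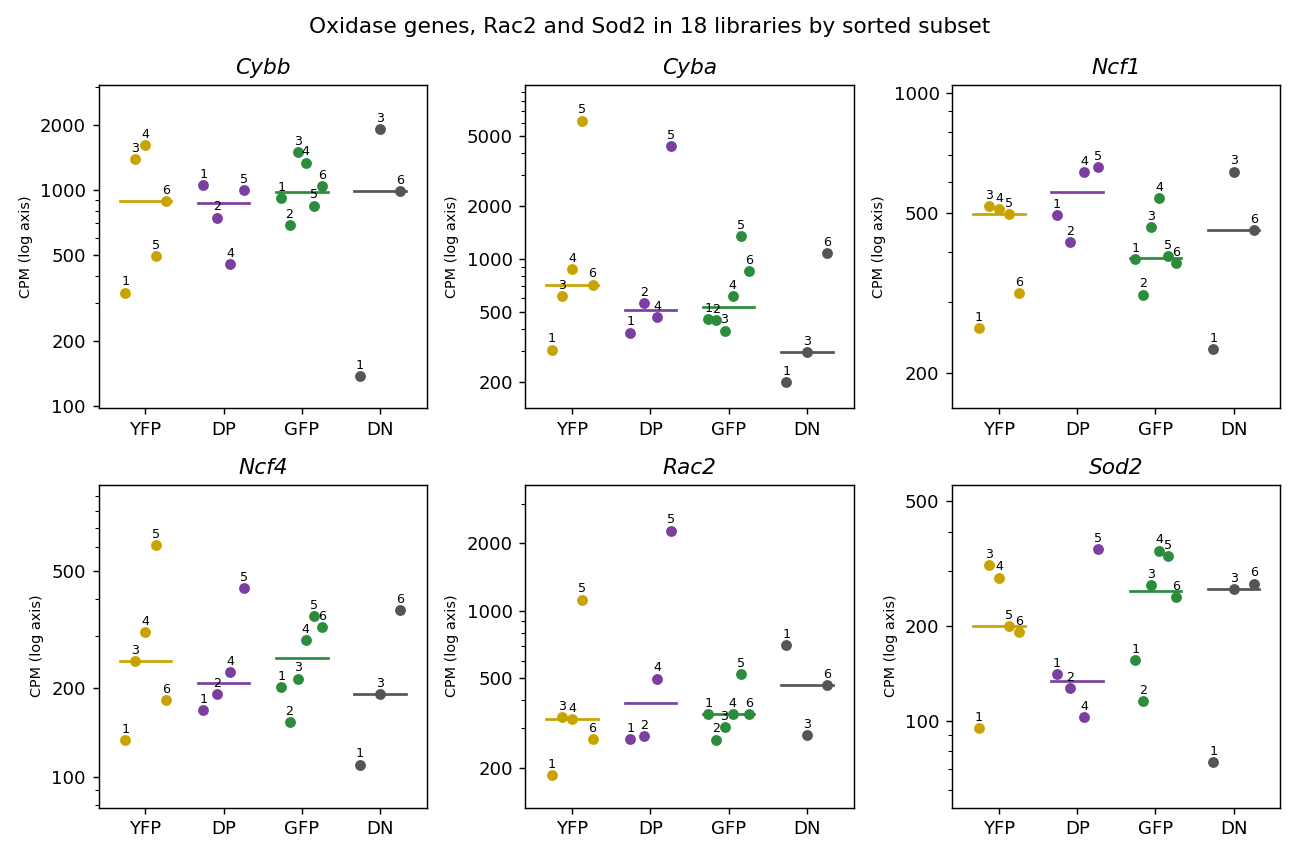
Levels of Cybb, Cyba, Ncf1, Ncf4, Rac2 and Sod2 in CPM (log axis) in YFP (n = 5), DP (n = 4), GFP (n = 6) and DN (n = 3) libraries. Each point is a library with its replicate number, and each bar is the median of its subset. The subsets overlap for every gene, and Cyba reaches 6145 CPM in YFP replicate 5 and 4382 CPM in DP replicate 5.

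Cybb (mm10 chromosome X, 9435252 to 9487771, minus strand) encodes the catalytic, electron-carrying subunit. It had 334, 1390, 1612, 493 and 890 CPM in YFP replicates 1, 3, 4, 5 and 6, and 1048, 742, 451 and 996 CPM in DP replicates 1, 2, 4 and 5. GFP libraries ranged from 683 to 1489 CPM with a median of 979 CPM, and DN replicates 1, 3 and 6 had 136.5, 1913 and 990 CPM. The subsets overlapped throughout, and both extremes of the series, 14.02-fold apart, lay among the 3 DN libraries. With library totals alone the lowest was YFP replicate 5, at 219.2 CPM, beside 238.7 CPM in DN replicate 1. Mean levels were 944 ± 553 CPM in YFP, 809 ± 274 CPM in DP, 1051 ± 306 CPM in GFP and 1013 ± 888 CPM in DN libraries (SD, n = 5, 4, 6 and 3). The order of these means was GFP, DN, YFP and DP from the highest down, and no neighbours in it differed beyond their spread. DN replicate 1, the lowest library after TMM scaling, is the one with the highest T cell and B cell markers. Csf1r, the receptor of the macrophage growth factor, was also lowest there, at 150.2 CPM, against at least 473.2 CPM elsewhere. What part the mix of cells had in the low Cybb level was not tested.

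Cyba (chromosome 8, 122424776 to 122432930, minus strand) encodes the smaller subunit that stabilises the product of Cybb and gives the cytosolic subunits their docking site. It had 304, 615, 874, 6145 and 714 CPM in YFP replicates 1, 3, 4, 5 and 6, and 380, 559, 464 and 4382 CPM in DP replicates 1, 2, 4 and 5. GFP libraries ranged from 390 to 1353 CPM with a median of 535 CPM, and DN replicates 1, 3 and 6 had 198.0, 294.5 and 1081 CPM. YFP replicate 5 and DP replicate 5 stood far above their own subsets, and without them all 4 subsets overlapped. The means, 1730 ± 2477 CPM in YFP, 1446 ± 1958 CPM in DP, 685 ± 368 CPM in GFP and 525 ± 485 CPM in DN libraries (n = 5, 4, 6 and 3), stood in that order from the highest down, and the gap between each pair of neighbours was smaller than the SD of the higher of them. The scaling enlarged both high values. With library totals alone they were 2733 CPM in YFP replicate 5 and 2334 CPM in DP replicate 5, since the TMM factors of these libraries were the lowest of the series (0.4448 and 0.5329).

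The ratio of Cybb counts to Cyba counts in a library does not depend on any scaling, and it varied 81.0-fold over the series. It was 0.0802 in YFP replicate 5 and 1.10 to 2.26 in the other YFP libraries, and 0.227 in DP replicate 5 and 0.972 to 2.76 in the other DP libraries. GFP libraries had ratios of 0.624 to 3.82, and DN replicates 1, 3 and 6 had 0.6892, 6.495 and 0.9153. The transcripts of these genes differ in length, 4752 bases for Cybb and 744 bases for Cyba in GENCODE vM21. Genes were therefore compared in each library by the joined length of all their annotated exons, 1039 bases for Cyba and 5808 bases for Cybb. Over 6206 genes, 112 were under 1000 bases, Cyba not among them, and 2740 were over 5000 bases, Cybb left out. Their levels were taken relative to the GFP mean. Short genes stood above long ones by a median of 3.83 log2 units in YFP replicate 5 and 3.82 in DP replicate 5, by 1.35 in GFP replicate 5 and 0.794 in DN replicate 6, and by -1.24 to 0.545 in the other 14 libraries. The log2 ratio of Cybb to Cyba ran against this measure, with Pearson's r of -0.921 and Spearman's rho of -0.783 over 18 libraries, and r of -0.813 over the 16 libraries without YFP replicate 5 and DP replicate 5. Both axes come from the same libraries and share their composition, so the correlation is a description, and the part that transcript length or RNA quality had in the ratio was not tested.

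**Figure D2:**
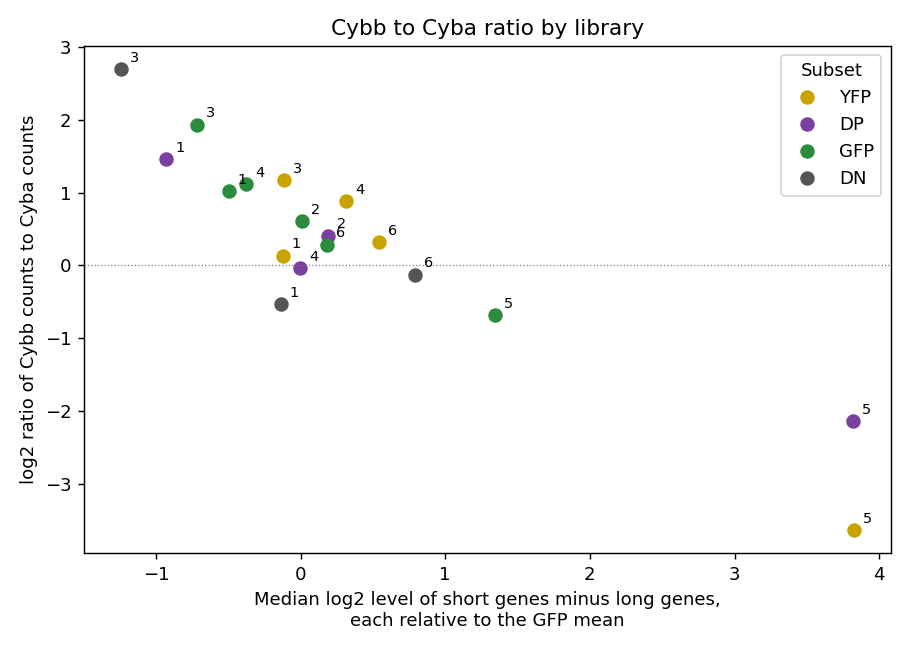
The log2 ratio of Cybb counts to Cyba counts (vertical axis) against the difference between short and long genes (horizontal axis). The difference is the median log2 level of genes with joined exons under 1000 bases minus that of genes over 5000 bases. Both levels are relative to the GFP mean. Each point is 1 of 18 libraries, coloured by subset and marked with its replicate number. The ratio is highest in DN replicate 3 (2.70) and lowest in YFP replicate 5 (-3.64), which with DP replicate 5 lies apart at the right.

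Ncf1 (chromosome 5, 134220053 to 134229625, minus strand) encodes the organiser that links the cytosolic subunits to the flavocytochrome. It had 259, 521, 512, 497 and 316 CPM in YFP replicates 1, 3, 4, 5 and 6, and 495, 424, 633 and 653 CPM in DP replicates 1, 2, 4 and 5. GFP libraries ranged from 314 to 545 CPM with a median of 388 CPM, and DN replicates 1, 3 and 6 had 229, 635 and 454 CPM. It was the most even of the 6 genes, with the highest and lowest libraries 2.853-fold apart. Within subsets its SD was 0.435 log2 units, against a median of 1.091 over 6699 genes of at least 20 CPM, which placed it at percentile 3 of them. The other SDs were 0.682 for Ncf4, 0.757 for Sod2, 0.906 for Rac2, 0.98 for Cybb and 1.315 for Cyba, so that Cyba alone lay above the median gene. Mean Ncf1 levels were 421 ± 124 CPM in YFP, 552 ± 110 CPM in DP, 412 ± 80.7 CPM in GFP and 440 ± 204 CPM in DN libraries (n = 5, 4, 6 and 3). DP had the highest mean, followed by DN, YFP and GFP, again with no neighbours apart beyond their spread. The exons of Ncf1 overlap those of Gtf2ird2 on the opposite strand, and since the strand setting of the counting was not given in the sources used here, reads of both genes may be mixed.

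Ncf4 (chromosome 15, 78244801 to 78262580, plus strand) encodes the adaptor that binds a membrane lipid of phagosomes. It had 133, 247, 310, 613 and 182 CPM in YFP replicates 1, 3, 4, 5 and 6, and 168, 191, 226 and 438 CPM in DP replicates 1, 2, 4 and 5. GFP libraries ranged from 153 to 350 CPM with a median of 252.5 CPM, and DN replicates 1, 3 and 6 had 109.8, 190.4 and 368 CPM. As for Cyba, the highest library of the YFP, DP and GFP subsets was in each case replicate 5. Means were 297 ± 189 CPM in YFP, 256 ± 124 CPM in DP, 255 ± 76.8 CPM in GFP and 223 ± 132 CPM in DN libraries (n = 5, 4, 6 and 3), apart by less than their SDs.

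Rac2 (chromosome 15, 78559167 to 78572783, minus strand) encodes the GTPase of blood cells that completes the active oxidase. It had 186, 336, 329, 1121 and 269 CPM in YFP replicates 1, 3, 4, 5 and 6, and 269, 277, 499 and 2277 CPM in DP replicates 1, 2, 4 and 5. GFP libraries ranged from 267 to 523 CPM with a median of 346 CPM, and DN replicates 1, 3 and 6 had 704.5, 279 and 468 CPM. Of 18 libraries, 15 lay at or below 523 CPM, and those above it were YFP replicate 5, DP replicate 5 and DN replicate 1. Means were 448 ± 381 CPM in YFP, 831 ± 970 CPM in DP, 356 ± 88.2 CPM in GFP and 484 ± 213 CPM in DN libraries (n = 5, 4, 6 and 3), with DP highest and GFP lowest. Scaled by library totals alone, Rac2 was 498 CPM in YFP replicate 5, 1213 CPM in DP replicate 5 and 1232 CPM in DN replicate 1.

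After TMM scaling, Rac2 was high in DN replicate 1 and each of the other 5 genes was at its lowest there. No other library had this pattern. The TMM factor of this library, 1.7517, was the highest of the series. With library totals alone, each of these 5 genes was lower in another library than in DN replicate 1. The ratio of Rac2 counts to Cybb counts was 5.16 there, against 0.146 and 0.4725 in DN replicates 3 and 6, 2.29 in DP replicate 5, 1.11 in DP replicate 4, 2.27 in YFP replicate 5, and 0.203 to 0.620 in GFP libraries. Rac1 encodes the related GTPase that most cell types express, and its exons overlap those of Daglb on the opposite strand. Rac2 exceeded Rac1 in counts in DN replicate 1 (3.34 times), DP replicate 5 (3.07 times), YFP replicate 5 (1.44 times) and DP replicate 4 (1.15 times), and was 0.516 to 0.873 of Rac1 in every GFP library. These libraries differ in the other cells they show. In DN replicate 1 the T cell markers summed to 1362 CPM and the B cell markers to 1277 CPM, with none of these 13 genes at 0. In DP replicate 5 the neutrophil markers summed to 39460 CPM, with 8 of 13 at their highest there, and the 7 markers of eosinophils, mast cells and basophils to 11080 CPM, with 6 of 7 at their highest. The macrophage and monocyte markers of DP replicate 5 summed to 80000 CPM, above the highest GFP sum of 61230 CPM. Smooth muscle markers (2858 CPM) and erythroid and platelet markers (4091 CPM) also had their highest sums in that library. In YFP replicate 5 the macrophage and monocyte markers had their highest sum (132700 CPM), with 9 of 14 at their highest there. Csf1r, not among those 9, had 1339 CPM there, against 2326 to 5148 CPM in GFP libraries. YFP replicate 5 also had the lowest TMM factor, 0.4448, and short genes 3.825 log2 units above long ones. Summed T cell markers ranged over 21.43 to 139.4 CPM in YFP, 16.13 to 331.5 CPM in DP, 14.7 to 253.5 CPM in GFP and 18.86 to 1362 CPM in DN libraries, and what part they or the neutrophil markers had in Rac2 was not tested.

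**Figure D3:**
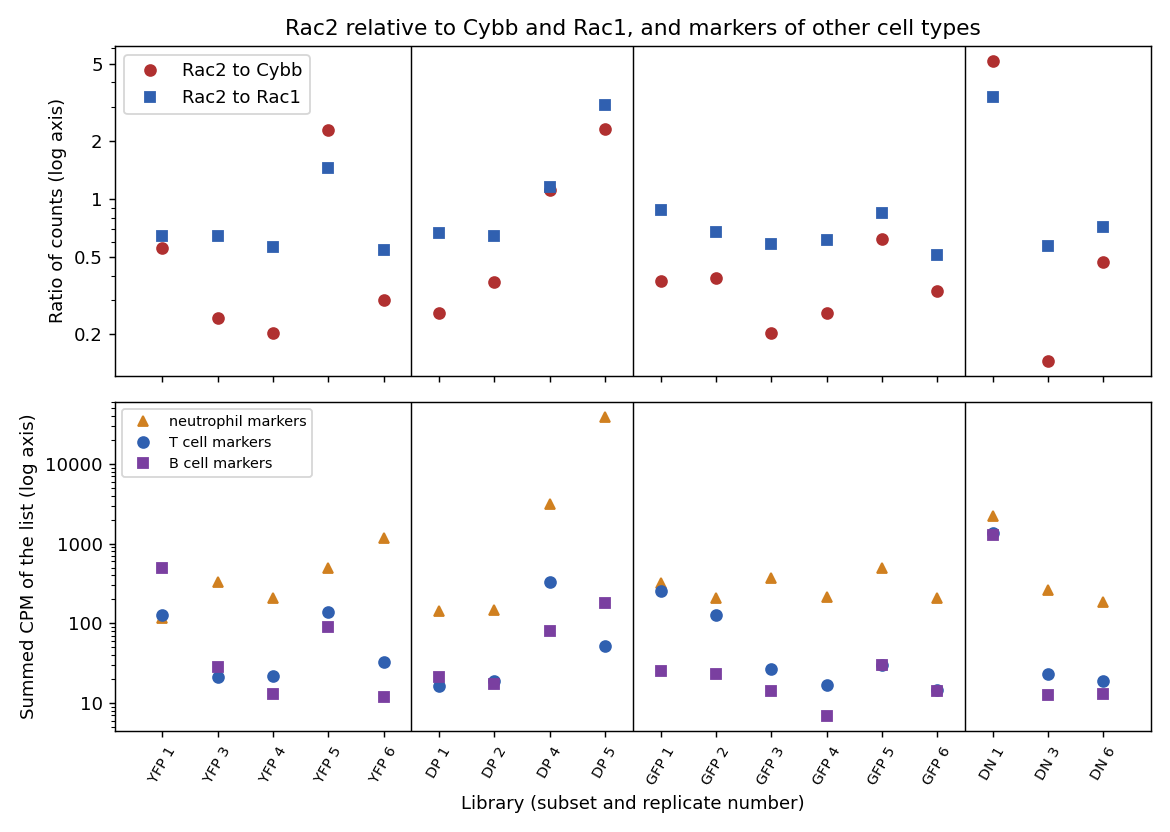
Upper panel, ratio of Rac2 counts to Cybb counts and to Rac1 counts in each library (log axis). Lower panel, summed CPM of 13 neutrophil, 7 T cell and 6 B cell markers (log axis). Libraries stand in the order YFP, DP, GFP and DN, divided by vertical lines; the Rac2 to Cybb ratio is highest in DN replicate 1 (5.16), which also has the highest T cell sum (1362 CPM).

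Sod2 (chromosome 17, 13006846 to 13040063, plus strand) had 94.9, 313, 285, 200.2 and 191 CPM in YFP replicates 1, 3, 4, 5 and 6, and 141, 127, 102 and 353 CPM in DP replicates 1, 2, 4 and 5. GFP libraries ranged from 115 to 348 CPM with a median of 258 CPM, and DN replicates 1, 3 and 6 had 74.0, 262 and 273 CPM. After TMM scaling, the libraries numbered 1 or 2 all lay at or below 156 CPM. Those numbered 3 to 6 lay at or above 191 CPM with the exception of DP replicate 4. With library totals alone this split was less clean, with 188.5 CPM in GFP replicate 1 and 89.05 CPM in YFP replicate 5. The split was not particular to Sod2. After TMM scaling, Rac1 had at most 429.0 CPM in numbers 1 and 2 and at least 435.1 CPM in numbers 3 to 6. With library totals alone it had 523.0 CPM in GFP replicate 2 and 345.2 CPM in YFP replicate 5. The numbers, and not the subsets, also divide the libraries by detected genes, 19245 to 21972 in numbers 1 and 2 and 13150 to 18961 in numbers 3 to 6. The labels do not say what the numbers mark. Mean Sod2 levels were 217 ± 86.4 CPM in YFP, 181 ± 116 CPM in DP, 245 ± 93.9 CPM in GFP and 203 ± 112 CPM in DN libraries (n = 5, 4, 6 and 3). GFP had the highest mean and DP the lowest, and all subsets overlapped.

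Levels of different genes can be set side by side only per transcript length. On this scale the median over 18 libraries was 789 CPM per kb for Cyba, 201 for Cybb, 168 for Ncf1, 151 for Ncf4, 112 for Rac2 and 38.2 for Sod2, with Rac1 at 121 CPM per kb. Cyba was the highest of the 6 genes per length in 17 of 18 libraries, all but DN replicate 3, where Cybb was higher. Sod2 was the lowest in all 18. The order between them varied. Cybb followed Cyba in 9 libraries, and it dropped to the place before Sod2 in YFP replicate 5, DP replicates 4 and 5 and DN replicate 1.

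**Figure D4:**
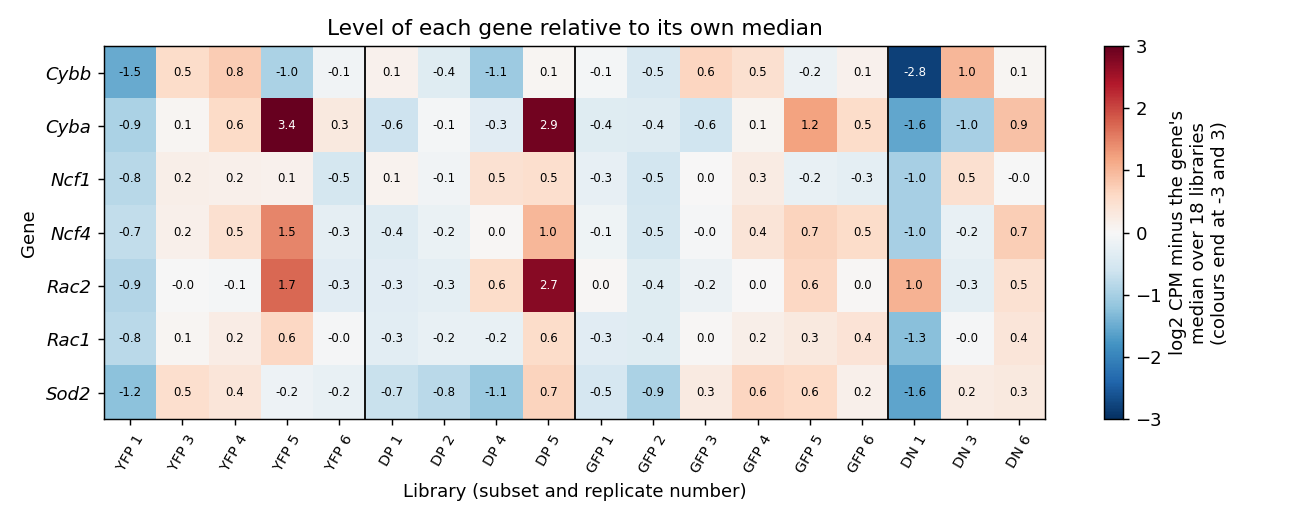
Level of the 6 genes and of Rac1 in each library, as log2 CPM minus the median of that gene over 18 libraries. Columns are libraries in the order YFP, DP, GFP and DN, divided by black lines, and red is above and blue below the median of the gene. Cyba stands at 3.4 in YFP replicate 5 and 2.9 in DP replicate 5, and Cybb at -2.8 in DN replicate 1, while Rac2 is at 1.0 there.

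The subsets were then compared in pairs with edgeR's quasi-likelihood test on the counts of 17143 genes, with p-values adjusted by Benjamini-Hochberg over all of them and a threshold of 0.05. None of the 6 genes passed in any of the 6 pairs or in the test over the 4 subsets together, in which no direction is given. The same test called 34 genes, or 0.198% of those tested, between DP and GFP, all higher in DP, and 57 genes, or 0.332%, over the 4 subsets, and 0 genes, or 0%, in each of the other 5 pairs. At an unadjusted p under 0.05 it held 1154 genes for YFP versus DP, 1203 for YFP versus GFP, 1172 for DP versus GFP, 461 for YFP versus DN, 464 for DP versus DN and 231 for GFP versus DN. Of the 6 genes, 1 was among these, Rac2 between DP and GFP. DESeq2 called none of the 6 genes in any pair, and limma voom with sample weights called 1, Sod2, between DP and GFP, where it called 20.1% of all genes. In edgeR few genes of any kind separated these subsets, so the absence of calls does not set the oxidase genes apart, nor does it show that their levels were alike.

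The largest difference by test was that of Rac2, with a log2 fold change of 1.22 ± 0.58 (SE) for DP versus GFP and a 95% interval of 0.04 to 2.41, an unadjusted p of 0.04325 and an adjusted p of 0.6963 in edgeR. Without DP replicate 5 the value was 0.19. Cyba had fold changes of 1.34 ± 0.72 for YFP versus GFP (interval -0.15 to 2.83, adjusted p = 0.7795 in edgeR) and 1.08 ± 0.76 for DP versus GFP (interval -0.48 to 2.64, adjusted p = 1). Without YFP replicate 5 the first was -0.08, and without DP replicate 5 the second was -0.29. The membrane partner Cybb had -0.16 (interval -1.23 to 0.91) and -0.38 (-1.53 to 0.77) in the same comparisons. For the cytosolic subunits the values were 0.03 (-0.76 to 0.83) and 0.42 (-0.42 to 1.26) for Ncf1, and 0.22 (-0.72 to 1.16) and 0.0018 (-1.0015 to 1.0051) for Ncf4. Rac2 had 0.34 (-0.79 to 1.46) for YFP versus GFP, and Sod2 had -0.18 (-1.15 to 0.80) for YFP versus GFP and -0.44 (-1.49 to 0.60) for DP versus GFP.

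**Figure D5:**
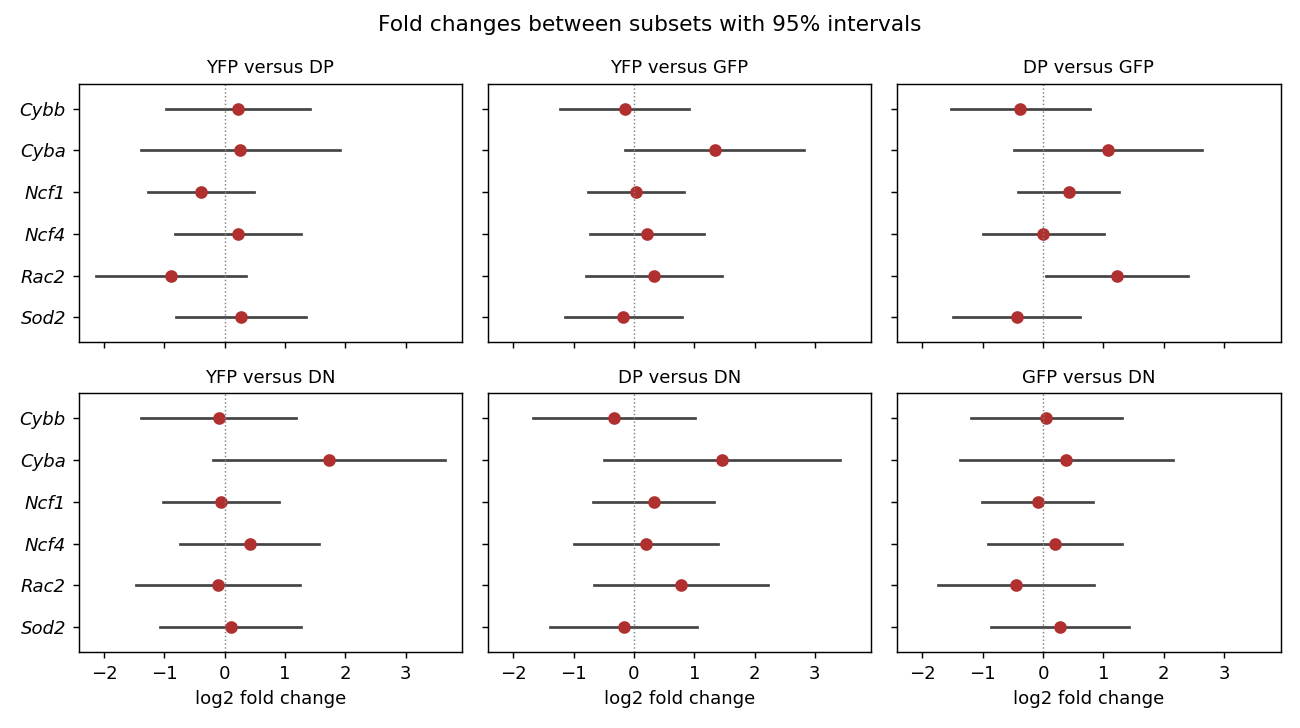
Log2 fold changes of the 6 genes in the 6 pairs of subsets, the first-named subset over the second. Points are edgeR estimates and lines are 95% intervals. The interval of Rac2 for DP versus GFP (0.04 to 2.41) alone leaves out 0, and it did not pass after adjustment over 17143 genes.

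Over all 36 fold changes the values ran from -0.89 (Rac2, YFP versus DP) to 1.72 (Cyba, YFP versus DN). Of the 6 genes, 4 were higher in YFP than in DP, 4 in YFP than in GFP, 4 in DP than in GFP, 3 in YFP than in DN, 4 in DP than in DN and 4 in GFP than in DN. The medians of the 6 in these comparisons were 0.22, 0.13, 0.21, 0.02, 0.26 and 0.13 on the log2 scale, beside -0.09, 0.04, 0.20, 0.06, 0.21 and 0.04 over all genes tested. The pairs share libraries, so these rows are not independent of each other. Setting aside YFP replicate 5 and DP replicate 5, an alternative chosen after the data were seen, 0 of the 6 genes were higher in YFP than in GFP (median -0.17, beside -0.04 over all genes), and 2 of 6 were higher in DP than in GFP (median -0.36, beside 0.16). No gene passed in that fit.

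Among libraries numbered 1 and 2 alone, DN replicate 1 is the only DN library and YFP replicate 1 the only YFP library, so the values restate where DN replicate 1 lies and are given without a test. The log2 fold change of Cybb was 2.58 for DP versus DN and 2.35 for GFP versus DN. That of Rac2 was -1.96 for YFP versus DN, -1.52 for DP versus DN and -1.40 for GFP versus DN. With arms of 1 library, that fit passed 9.84% of all genes for YFP versus DN, 14.1% for DP versus DN, 12.5% for GFP versus DN and 18.1% over the 4 subsets. In libraries numbered 3 to 6 alone, none of the 6 genes passed in any pair.

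The other genes of the pathway were read in 6 lists, in none of which any gene passed between a pair of subsets. At an unadjusted p under 0.05 in edgeR a list held 0 to 5 genes in a pair. The most were 5 of 23 genes that handle superoxide and peroxide for DP versus GFP, where 6.84% of all genes lay under 0.05. For YFP versus GFP that list held 4 of 23, beside 7.02% of all genes. Without YFP replicate 5 and DP replicate 5 it held 3 and 1 of 23 in these pairs. Among partners of the oxidase, 5 of 6 entries were in the table, since Cybc1 stands there under its older symbol, BC017643. This gene, whose product is a chaperone for the flavocytochrome, averaged 134.5 ± 116 CPM in YFP, 71.7 ± 23.0 CPM in DP, 124.4 ± 17.8 CPM in GFP and 113.5 ± 20.5 CPM in DN libraries. Its 6 GFP values, from 96.46 to 144.6 CPM, overlapped the 4 DP values, from 44.8 to 99.57 CPM, by 1 library of each subset. The DP versus GFP fold change was -0.80 ± 0.49 (adjusted p = 0.9519 in edgeR). Rap1a, a small GTPase that is found with the flavocytochrome, averaged 163 ± 67.0 CPM in YFP, 93.1 ± 39.2 CPM in DP, 141.2 ± 40.5 CPM in GFP and 107 ± 48.6 CPM in DN libraries. Rac1 was even over the subsets, with 533 ± 176 CPM in YFP, 503 ± 160 CPM in DP, 527 ± 114 CPM in GFP and 451 ± 224 CPM in DN libraries.

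Other NADPH oxidases were scarce beside these. Nox1 and Nox3 had 28 and 49 counts over the whole series and were not tested, and the medians of Duox1, Duox2 and Noxa1 were at most 0.1564 CPM. Nox4, an oxidase of vessel wall cells that needs Cyba but none of the cytosolic subunits, averaged 7.60 ± 7.89 CPM in YFP, 40.8 ± 51.4 CPM in DP, 3.78 ± 2.32 CPM in GFP and 5.65 ± 4.08 CPM in DN libraries. Its highest level, 112.0 CPM, was in DP replicate 5, and it had 0 CPM in YFP replicate 5, so that the libraries in which Cyba was highest were the top and the bottom for Nox4. Fibroblast markers, 10 genes with none at 0 in any library, summed to 5689 CPM in DP replicate 5, to 12090 CPM in DP replicate 4 and to 11160 CPM in YFP replicate 1, against 247.3 to 1093 CPM in GFP libraries and 2269 to 4476 CPM in DN libraries. The DP versus GFP fold change of Nox4 was 3.43 ± 1.05 (adjusted p = 0.1991 in edgeR). Duoxa1, the maturation factor of a dual oxidase, stayed at or below 0.8874 CPM.

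Of 20 genes that signal to the oxidase, 7 were higher in YFP than in GFP (median -0.36) and 6 in DP than in GFP (median -0.20), beside medians of 0.04 and 0.20 over all genes. Without YFP replicate 5 and DP replicate 5 the counts were 3 and 12 of 20, with medians of -0.25 and 0.03, beside -0.04 and 0.16 over all genes. Arhgdib, whose product holds Rac in the cytosol, had 2441 CPM in YFP replicate 5 and 5312 CPM in DP replicate 5 and at most 918.6 CPM in GFP and 699.8 CPM in DN libraries. Pla2g4a, which encodes a phospholipase that releases arachidonic acid, had its lowest value, 1.197 CPM, in YFP replicate 5 and its highest, 185.7 CPM, in DP replicate 5. Of 16 transcription factor genes, 8 were higher in YFP than in GFP (median 0.04) and 7 in DP than in GFP (median -0.06), and without YFP replicate 5 and DP replicate 5 the counts were 4 and 4 of 16 (medians -0.36 and -0.13). Sfpi1, which encodes PU.1, averaged 555 CPM over the series and had 74.6 CPM in DN replicate 1, its lowest. Irf8, which encodes a partner of PU.1 at Cybb, had its lowest value in DP replicate 5, at 31.3 CPM. Cebpe, a factor of granulocyte maturation, and Sirt3, a mitochondrial deacetylase that acts on the product of Sod2, were both highest in YFP replicate 5, at 13.36 and 191.9 CPM, against at most 0.9557 and 22.42 CPM in GFP libraries.

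Genes that handle superoxide and peroxide had the widest shift of the lists with 10 or more genes. Of 23, 17 were higher in YFP than in GFP (median 0.89, beside 0.04 over all genes) and 18 in DP than in GFP (median 0.88, beside 0.20), none of them past the threshold. Without YFP replicate 5 and DP replicate 5 the counts were 11 and 9 of 23, with medians of -0.08 and -0.25. The median transcript length of these 23 genes was 2049 bases, against 2879.5 bases for the 6 genes described here. It was 2238 bases for the 7 tested genes of other NADPH oxidases and their organisers. Their median fold changes were -0.80 for YFP versus GFP and 0.53 for DP versus GFP. The part that transcript length had in these shifts was not tested. Sod3, the extracellular superoxide dismutase that vessel wall cells secrete, averaged 81.3 ± 67.7 CPM in YFP, 304 ± 298 CPM in DP, 31.8 ± 16.2 CPM in GFP and 91.8 ± 22.6 CPM in DN libraries. Its DP versus GFP fold change was 3.25 ± 0.73 (adjusted p = 0.05844 in edgeR), with its highest value, 668.0 CPM, in DP replicate 4, the library highest in fibroblast markers. Gpx3, the secreted glutathione peroxidase, averaged 90.0 ± 51.5 CPM in YFP, 232 ± 299 CPM in DP, 37.7 ± 21.8 CPM in GFP and 68.8 ± 8.004 CPM in DN libraries, with a DP versus GFP fold change of 2.62 ± 0.63 (adjusted p = 0.07044).

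Among other oxidant enzymes was Mpo, the myeloperoxidase of neutrophil granules. Of the 6 pathway lists, it alone passed the test over the 4 subsets (adjusted p = 0.04953 in edgeR). Of the marker genes outside these lists, Elane, Gp1bb, Mfap5 and Dcn passed that test too. Mpo had 424.5 CPM in DP replicate 4, and its DP median was 1.954 CPM. Its medians were 0.598 CPM in YFP, 0.708 CPM in GFP and 0.220 CPM in DN libraries. Mpo is also 1 of the 13 neutrophil markers, which summed to 3178 CPM in that library. Epx, the eosinophil peroxidase, had 150.1 CPM in DP replicate 5 and at most 2.985 CPM in any YFP library, 1.775 CPM in any GFP library and 1.202 CPM in any DN library.

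How alike the 6 genes ran over the 18 libraries was described by Pearson's r of log2(CPM + 1), with no test, since all values share the same libraries, their scaling and their composition. The highest r among the 6 genes was that of Cyba with Ncf4, 0.909, and Cybb ran with Sod2 (0.791) and Ncf1 (0.643). Cybb and Cyba had r of 0.157, and Cybb and Rac2 -0.222. Among 6443 genes of at least 20 CPM on average, the 3 most like Cybb were Plekhb2 (0.942), Klf10 (0.939) and Ifrd1 (0.938). The 3 most like Cyba were Gpx1 (0.987), which encodes a glutathione peroxidase, and the proton pump subunit genes Atp6v0e and Atp6v1f (0.986 each). For Ncf1 these were Mat2a (0.898), Il1rn (0.862) and Pttg1ip (0.841), and for Ncf4 Hdgf (0.974), Rsu1 (0.972) and Arf1 (0.970). Rac2 was most like Nsmce1 (0.947), Myl12b (0.942) and Ccm2 (0.941), and Sod2 most like Eif2s1 (0.939), Ndfip2 (0.934) and Slfn2 (0.934). None of the 6 genes appeared among the 3 most like another of them. The 50 genes most like Cyba had a median transcript length of 1028 bases and those most like Rac2 1423 bases, while those most like Cybb had 3279 bases and all candidates 2962.5 bases.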

How the data were processed

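Whole-number counts per gene, not normalized, were deposited by the authors as 1 table of 23337 gene symbols by 18 libraries. Per the labels' protocols, the kits were SMART-seq v4, with 11 amplification cycles, and Nextera XT. The submitters' processing notes name the build mm10, HTSeq 0.7.1, TopHat 1.4.1 and SAMtools, while annotation and strand setting are not given in the sources used here. Column names equal sample titles, and libraries were grouped by sorted subset.

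The test was edgeR 4.0.16 under R 4.3.3 (filterByExpr by subset, TMM scaling, robust quasi-likelihood fit, 1 mean per subset over 18 libraries, common dispersion 0.89), which left 17143 genes. P-values were adjusted by the method of Benjamini and Hochberg, and 0.05 was the threshold. Each standard error is the size of the fold change over the root of F. The scripts were tested on simulated data. CPM values are counts relative to TMM-scaled library sizes, with SD as error. Total counts ran from 289166 to 27742113 per library; there are no molecular identifiers, so reads need not be separate molecules. Libraries of a subset differed well beyond sampling noise (smallest chi-square over degrees of freedom 16.38), and each was counted once.

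The 6 genes, the pathway and marker lists and the motifs were chosen with earlier results of these data known. Named beside the 6 genes were Cybc1 and Rac1 (a further partner is not reported here), and up to 2 genes per list with the smallest p over the 4 subsets; Sfpi1, Irf8, Csf1r and the scarce oxidases are named as background. Likeness was Pearson's r of log2(CPM + 1), with a pseudocount of 1 and a minimum mean of 20 CPM. Transcript lengths and coordinates are of the principal transcripts and genes of GENCODE vM21 on GRCm38, and promoters are RefSeq's for GRCm38.p6. The classes of short and long genes instead use the joined length of all annotated exons of a gene. DESeq2 1.42.0, limma 3.58.1 voom, other scalings, no filter on low counts, the replicate number as a block, subsets of libraries and leaving out each library were alternatives. Same-numbered libraries were checked for pairing by correlating deviations from subset means. GFP with DN had r of 0.663, 0.53 and 0.626. Of different numbers, GFP 2 with DN 1 had 0.721 and GFP 5 with DN 6 had 0.571. GFP with YFP had 0.293 to 0.538, and YFP with DN had 0.55 and 0.393, all without YFP 6. In YFP 6, the library with the fewest counts, these were -0.006 and -0.064. Every pair of subsets that includes DP had at least 1 value under 0.1.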

Additional observations from a re-analysis of the deposited data

Results flagged for a closer look

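Cyba in DP replicate 5, at 4382 CPM, lay further from the other DP libraries (380, 559 and 464 CPM) than a test for single outlying values in small groups allows. That test was run on the 6 genes in the YFP, DP and GFP subsets, 18 groups in all, and chance alone gives such a value in about 1 of 20 groups. In that library short genes stood 3.82 log2 units above long ones and the TMM factor was 0.5329. Neutrophil markers summed to 39460 CPM there, and macrophage and monocyte markers to 80000 CPM. The part of these in the Cyba level was not tested.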

How the results depend on the processing

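None of the 6 genes passed under DESeq2, RLE scaling, library totals alone, no filter on low counts, the replicate number or the number set as a term, numbers 3 to 6 alone, without 4 of the 5 libraries that go against their labels (DP 4, DP 5, DN 3 and DN 6; YFP 6 was kept there and left out alone), or on leaving out any single library. Voom with sample weights called 1 gene for DP versus GFP (Sod2, log2 fold change -1.04, adjusted p = 0.01812), where it called 3451 of all genes. Numbers 1 and 2 alone have 1 library each in YFP and DN. Calls of the 6 genes in that fit are not counted here, and its fold changes of Cybb and Rac2 against DN are given above. Over all genes, DP versus GFP had 34 calls, and 351 with DESeq2, 92 with RLE scaling, 62 without the filter, 188 in numbers 3 to 6, 244 in numbers 1 and 2 and 0 with library totals alone or with the replicate number as a block. DESeq2 called 133, 181, 11, 25 and 0 genes for YFP versus DP, YFP versus GFP, YFP versus DN, DP versus DN and GFP versus DN, and voom 0, 448, 0, 0 and 3. Leaving out single libraries gave 0 to 252 calls for DP versus GFP. With the replicate block, 0 of the 6 genes and 0 of all genes were called for GFP versus DN. Same-numbered libraries of these subsets ran alike, but so did some of different numbers, so the numbers are not shown to mark pairs.

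Signs were unstable: 33 of 36 fold changes changed sign under at least 1 alternative. The 3 that did not were Cyba for YFP versus DN and Ncf1 for YFP versus DP and DP versus GFP. For YFP versus GFP, the sign turned for Cybb with voom (0.0048); for Cyba with numbers 1 and 2 (-0.40) and without YFP 5 and DP 5 (-0.17); for Ncf1 with totals alone (-0.11), the replicate block (-0.090), the number set (-0.080), numbers 1 and 2 (-0.27) and without YFP 5 and DP 5 (-0.054); for Ncf4 with totals alone (-0.076), numbers 1 and 2 (-0.25) and without YFP 5 and DP 5 (-0.24); for Rac2 with voom (-0.082), totals alone (-0.070), the replicate block (-0.10), numbers 1 and 2 (-0.56) and without YFP 5 and DP 5 (-0.37); and for Sod2 with DESeq2 (0.0061) and RLE scaling (0.0057). For DP versus GFP it turned for Cybb with the replicate block (0.099), numbers 1 and 2 (0.23) and without the 4 libraries (0.043); for Cyba with voom (-0.23), without the 4 libraries (-0.24) and without YFP 5 and DP 5 (-0.47); for Ncf4 with voom (-0.46), totals alone (-0.097), no filter (-0.0071), the replicate block (-0.029), without the 4 libraries (-0.21) and without YFP 5 and DP 5 (-0.30); for Rac2 with voom (-0.20), numbers 1 and 2 (-0.11) and without the 4 libraries (-0.11); and for Sod2 with numbers 1 and 2 (0.039). The cause of these turns was not tested.

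Leaving out single libraries, YFP versus GFP ranged over -0.30 to 0.11 for Cybb, -0.082 to 2.09 for Cyba, -0.032 to 0.32 for Ncf1, -0.18 to 0.71 for Ncf4, -0.31 to 0.87 for Rac2 and -0.32 to 0.16 for Sod2. DP versus GFP ranged over -0.53 to 0.17, -0.29 to 2.04, 0.35 to 0.90, -0.14 to 0.59, 0.19 to 1.95 and -0.73 to 0.23 for the same genes. Scaling moved all genes too: the median for DP versus GFP was 0.197 with TMM, 0.375 with RLE and 0.149 with totals alone, and 0.496 without DN replicate 3, a library outside that comparison. By Spearman's rho in place of Pearson's r, the most like genes were Ptpre for Cybb (0.953), Ndufb8 for Cyba (0.986), Tmem123 for Ncf1 (0.884), Hdgf for Ncf4 (0.99), Psmf1 for Rac2 (0.909) and Cd40 for Sod2 (0.94). YFP replicate 6, with 289166 counts, limits the precision of the YFP subset.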
